A study of Mus musculus with 24 samples.

Results

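The naive pluripotency factors described here are the 10 TFs Nanog, Klf2, Klf4, Klf5, Esrrb, Tfcp2l1, Nr5a2, Zfp42, Prdm14 and Tbx3, which were chosen by gene symbol. They make up 10 of the 49705 gene entries in the deposited table. All 10 were among the 21005 genes that reached a normalized count of 10 in at least 3 libraries, a filter that each of them could pass through the early days alone. The question asked of them is in which order they were shut down in OV organoids before sorting, and how much of each remained in the cells that did not become GFP-positive.

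The organoids were optic vesicle (OV) aggregates grown from a single mESC line, Rx-GFP K/I EB5, in which a GFP cassette was knocked into the Rax locus, and the mESCs had been maintained with LIF. On day 0, 4500 cells were plated per well, and Matrigel was added to 2% on day 1. RNA from live single cells of 24 pooled organoids was measured in 24 libraries, in 8 groups of 3 biological replicates: unsorted cells on each of days 0 to 3, and for days 4 and 5 both the GFP-positive and the GFP-negative gate. None of the groups carried a further mutation or drug treatment. For the initial organoids the labels name GMEM with knockout serum replacement, whereas the study's methods name a growth factor-free chemically defined medium, so the medium of these samples is uncertain. GFP stood for transcription of Rax, so cells with little GFP fell into the GFP-negative gate, and GFP-negative does not mean one cell type. Rax itself lay between 946 and 1018 normalized counts in the day 4 GFP-negative libraries, against 9100 to 9967 in the GFP-positive ones.

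Naive pluripotency is the state of the pre-implantation epiblast and of mESCs held in LIF. In this state LIF acts through the receptor Lifr and the TF Stat3 on targets such as Klf4 and Tfcp2l1, and the factors keep each other and the shared core factors Pou5f1 and Sox2 active. On release, cells lose these factors while Pou5f1 and Sox2 persist, pass through a formative and then a primed state marked by Fgf5 and Otx2, and become competent for neural and other fates.

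The promoters of 3 members are shown first, since the windows of Nanog, Zfp42 and Tfcp2l1 hold letters that the core TFs or the Klf factors are known to read. Each window covers 250 bases before and 50 bases from the RefSeq start on GRCm38.p6, and is written 5′ to 3′ on the strand of the gene. Capitals mark the octamer letters TTTGCAT read by Pou5f1-type factors, the Sox letters ACAATG and the Klf letters GGGNGTGG, searched on both strands.
Nanog, chr6:122707239-122707538, plus strand: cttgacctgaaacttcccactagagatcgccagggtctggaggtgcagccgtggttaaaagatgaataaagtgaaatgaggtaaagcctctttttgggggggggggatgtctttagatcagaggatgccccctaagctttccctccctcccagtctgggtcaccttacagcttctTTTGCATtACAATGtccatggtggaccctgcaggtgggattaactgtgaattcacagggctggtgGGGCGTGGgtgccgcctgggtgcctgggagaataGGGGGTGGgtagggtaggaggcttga
Zfp42, chr8:43306960-43307259, minus strand: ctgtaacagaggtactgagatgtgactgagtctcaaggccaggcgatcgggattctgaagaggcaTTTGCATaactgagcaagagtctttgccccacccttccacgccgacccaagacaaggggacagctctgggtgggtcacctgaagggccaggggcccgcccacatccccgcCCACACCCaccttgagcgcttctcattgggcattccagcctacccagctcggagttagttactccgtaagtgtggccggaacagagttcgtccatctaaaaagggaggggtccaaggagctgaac
Tfcp2l1, chr1:118627695-118627994, plus strand: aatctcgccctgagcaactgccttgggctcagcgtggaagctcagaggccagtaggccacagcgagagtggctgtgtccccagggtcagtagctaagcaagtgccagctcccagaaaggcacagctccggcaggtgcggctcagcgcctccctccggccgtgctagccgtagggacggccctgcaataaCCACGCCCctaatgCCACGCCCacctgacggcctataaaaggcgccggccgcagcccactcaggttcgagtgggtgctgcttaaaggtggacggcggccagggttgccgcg

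Counting the start base as 0, the octamer letters of Nanog began at base -75 and were followed after 1 base by the Sox letters, which began at base -67. The Klf letters of Nanog began at bases -10 and 24. RefSeq also gives a second, downstream Nanog start, with the window chr6:122707315-122707614. Counted from that start the same letters began at bases -151, -143, -86 and -52. In Zfp42 the octamer letters began at base -185, and the reverse complement of the Klf letters began at base -75. In Tfcp2l1 the reverse complement of the Klf letters was found at bases -61 and -47. None of these matches overlapped another. RefSeq start windows were matched for 7 of the 10 members, and Klf5, Prdm14 and Tbx3 are named only. Of 32817 windows of all genes, 4.63% held the octamer letters, 12.6% the Sox letters and 17.6% the Klf letters, so the Klf letters in 4 of 7 members stand beside a common background. The Sox letters were also found in Esrrb and the Klf letters also in Nr5a2. The nuclear receptor letters AAGGTCA, held by 4.72% of windows, and a spaced pair of CCAG blocks, as bound by Tfcp2l1 and held by 3.44%, were in none of the members' windows. The Stat letters TTCNNNGAA, held by 8.29%, were found in Esrrb. These are matches of letters and not binding sites.

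Normalized counts summed to 39849111 to 51587535 per library, which corresponds to an estimated 37100000 to 54500000 reads. Replicate 1 of day 0 stood apart from the other day 0 libraries, with a mean rank correlation across genes of 0.953 against 0.970 and 0.971. It held the lowest of the 3 day 0 values for 7 members (Klf2, Klf5, Esrrb, Tfcp2l1, Nr5a2, Prdm14 and Tbx3), the highest for Nanog and Zfp42, and the middle one for Klf4. In the same library 12 formative and primed genes summed to 51521 normalized counts, against 91310 and 112290 in the others, and 7 surface ectoderm genes to 10194 against 3394 and 4306. Values that start from day 0 were therefore also computed without this library. Without it the 10 log2-fold-changes from day 0 to day 3 lay between -2.13 for Nanog and -3.46 for Klf4, and all 10 were still called. Replicate 2 held the highest value of its group for all 10 members on day 1 and on day 2, and for 8 members on day 0 and in the GFP-positive gate on both days. With the replicate number added to the fit as a block, 109 results of single members kept their direction and their side of the threshold, and 1, that of Prdm14 from day 1 to day 2, gained a call. Because these are bulk libraries, fewer cells in the naive state and less RNA per cell cannot be told apart.

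**Figure D1:**
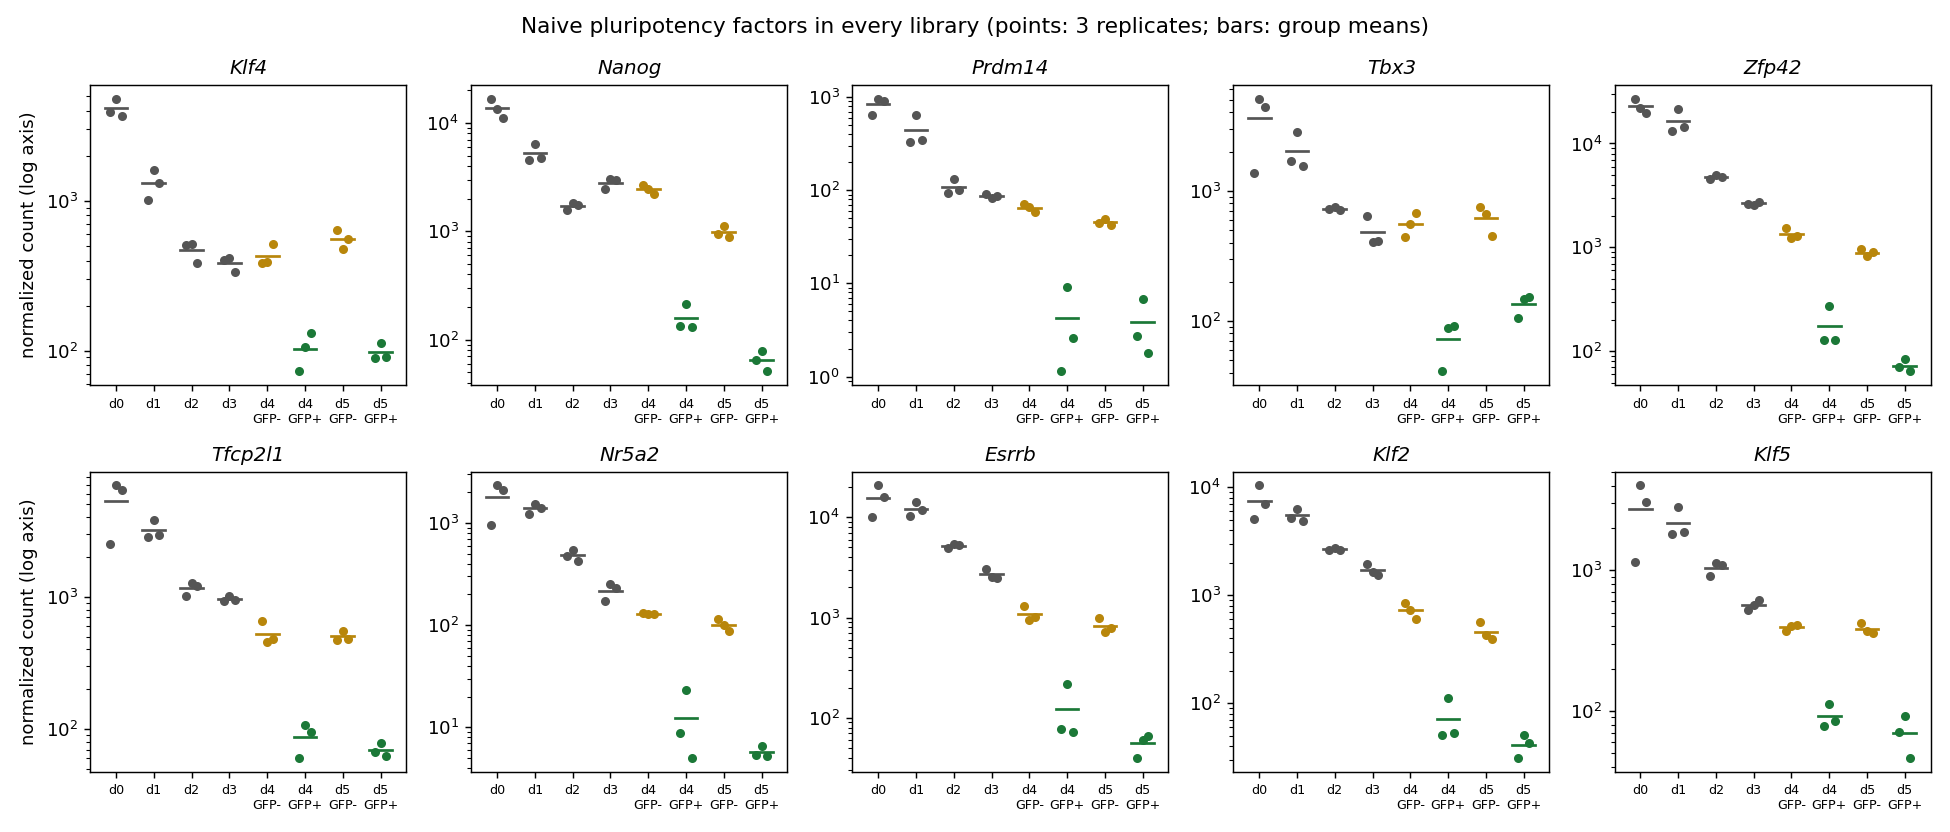
Normalized counts (log axis) of the 10 naive pluripotency factors in all 24 libraries, with unsorted days 0 to 3 in grey, GFP-negative cells in gold and GFP-positive cells in green. Points are the 3 replicates, horizontal bars are group means, and panels follow the order of the share left on day 2, from Klf4 (11.3%) to Klf5 (38.1%). All 10 members were lower in the GFP-positive than in the GFP-negative libraries on both days.

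From day 0 to day 3 all 10 factors fell, by between 4.21-fold for Klf2 and 10.7-fold for Klf4. The median log2-fold-change of the 10 was -0.56 from day 0 to day 1, -1.46 from day 1 to day 2 and -0.63 from day 2 to day 3, while the median over all genes tested lay between -0.02 and 0 in each step. Without day 0 replicate 1 the median was -0.91 from day 0 to day 1 and -2.88 over the 3 days, so the part of the first day depends on that library. For Klf4 the steps were -1.67 and -1.47 in the first and the second day, and -1.51 and -1.64 without day 1 replicate 1, so which of them was larger is not resolved. A gene was called in limma where the Benjamini-Hochberg adjusted p lay under 0.001 and the log2-fold-change was larger than 1.5 in size. By this rule 10 of 10 members fell from day 0 to day 3, where 6.12% of all genes tested did. In a fit of only the groups compared 4 of them were called over these days, and the highest adjusted p of the others was 0.0136, for Klf5. From day 0 to day 2 it was 8 of 10, beside 3.01% of all genes. Over single days the counts were 1 of 10 from day 0 to day 1 (0.395% of all genes), 2 of 10 from day 1 to day 2 (0.528%) and 0 of 10 from day 2 to day 3 (0.290%). The shares over all genes in these single-day steps moved by more than 1.5 times when 1 library was left out, to between 0.233% and 0.409%, 0.148% and 0.824%, and 0.124% and 0.457%. In the last of these steps limma gave an unadjusted p under 0.05 to 5 members with lower and 1 with higher values. No member was called higher in any comparison.

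Nanog (chr6:122707489-122714633 on mm10, plus strand) encodes the homeodomain TF at the centre of the network. Its 3 libraries held 16790, 13467 and 11108 normalized counts on day 0, then 4516, 6423 and 4762 on day 1, and 1583, 1839 and 1757 on day 2. The groups of these days did not overlap. On day 1 Nanog had 37.96% ± 10.9 (SD, n = 3) of its day 0 mean left, the second lowest share after Klf4. It had 42.6% left without day 0 replicate 1, and Tbx3 then came before it with 42.5%. The log2-fold-change of this step was -1.39 ± 0.20 (SE), just short of the fold threshold (adjusted p = 7.2e-05), and Nanog fell by 1.58 on the log2 scale between days 1 and 2 (adjusted p = 9.6e-06). This call was lost with quantile normalization (-1.4997) and without day 1 replicate 2 (-1.43, the end of a leave-one-out range from -1.68). Between days 0 and 2 the log2-fold-change without day 0 replicate 1 was -2.83. On day 3 the values were 2432, 3013 and 2952, all above those of day 2. This was the only member with a higher mean on day 3 than on day 2, with a log2-fold-change of 0.69 (95% interval 0.28 to 1.10, adjusted p = 0.0211), which is below the call. Its share of day 0 was 12.5% ± 2.76 on day 2 and 20.3% ± 4.80 on day 3, and 14.0% and 22.8% without day 0 replicate 1. The processed copies Nanog-ps1 and Nanog-ps2 never exceeded 1.43 and 0 normalized counts.

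The Krüppel-like zinc-finger TFs Klf2, Klf4 and Klf5 act partly in place of each other in mESCs, and Klf4 is a direct target of Stat3. They lay at opposite ends of the order. Klf4 (chr4:55527143-55532466, minus strand) held 3934, 4826 and 3671 normalized counts on day 0 and 1020, 1599 and 1313 on day 1. This was a 3.19-fold fall (log2-fold-change -1.67, adjusted p = 1.7e-05, and -1.71 without day 0 replicate 1), and no other member was called after 1 day. The call was lost in a fit of only the groups compared, and Nanog was also called without day 0 replicate 3 or without day 1 replicate 2 (leave-one-out range -1.55 to -1.24). On days 2 and 3 Klf4 was at 505, 518 and 385, and at 402, 418 and 334. The values of these last days overlapped.

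Klf2 (chr8:72319033-72321656, plus strand) held 5085, 10460 and 6988 normalized counts on day 0, 5203, 6370 and 4938 on day 1, 2606, 2765 and 2640 on day 2, and 1969, 1630 and 1554 on day 3. Days 0 and 1 overlapped, and from day 1 on each day lay below the one before. Klf5 (chr14:99298691-99315036, plus strand) held 1139, 4021 and 3068 on day 0, 1807, 2838 and 1872 on day 1, 915, 1131 and 1091 on day 2, and 522, 564 and 611 on day 3. Its lowest day 0 library lay below all of day 1 and only just above day 2. Klf2 and Klf5 were the members not called from day 0 to day 2, with log2-fold-changes of -1.43 (95% interval -1.98 to -0.88) and -1.21 (-1.87 to -0.56). Klf4 changed by -3.14 (-3.57 to -2.71) over the same days, an interval that did not meet either of the others. Without day 0 replicate 1 both were called, at -1.68 and -1.75, so that all 10 members were called from day 0 to day 2.

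Esrrb and Nr5a2 encode orphan nuclear receptors that bind near Pou5f1 and Nanog, and Tfcp2l1 encodes a CP2-type TF that transmits LIF signals. Esrrb (chr12:86361117-86521628, plus strand) held 10088, 20832 and 16116 normalized counts on day 0, 10213, 14166 and 11823 on day 1, 4912, 5444 and 5323 on day 2, and 3067, 2522 and 2488 on day 3. Nr5a2 (chr1:136842571-136960448, minus strand) held 956, 2337 and 2094, then 1228, 1538 and 1410.1, then 472, 543 and 428, and finally 173, 251 and 230.1. In both genes days 0 and 1 overlapped, and days 2 and 3 each lay below the day before. Esrrb passed the call from day 0 to day 2 only narrowly, at -1.52 on the log2 scale (adjusted p = 0.00074). Leaving out any of 5 of the 6 libraries of days 0 and 2, all but day 0 replicate 1, ended this call (range over all 6 omissions -1.81 to -1.29). Nr5a2 was at -1.80, and its call was ended by the same 5 omissions (-2.20 to -1.56). By day 3 Nr5a2 had fallen by 2.95 on the log2 scale, and Esrrb by 2.49. These values were -3.35 and -2.77 without day 0 replicate 1.

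Tfcp2l1 (chr1:118627945-118685168, plus strand) held 2504, 6970 and 6447 normalized counts on day 0, and 2821, 3780 and 2938 on day 1. Its values were 1016, 1263 and 1212 on day 2 and 934, 1018 and 944 on day 3. Its lowest day 0 library lay below all of day 1, and days 2 and 3 overlapped. Tfcp2l1 fell by 2.06 on the log2 scale between days 0 and 2 (adjusted p = 6.4e-06) and by 2.53 without day 0 replicate 1, with a smaller difference on day 3 (-0.26, adjusted p = 0.577). Of the 3 small genes that overlap it on either strand, none exceeded 15.1 normalized counts in any library.

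Zfp42, also called Rex1, is the zinc-finger gene most used as a reporter of the naive state. Zfp42 (chr8:43295063-43306980, minus strand) held 27036, 21804 and 19492 normalized counts on day 0, 13259, 21310 and 14505 on day 1, 4551, 5020 and 4715 on day 2, and 2646, 2580 and 2744 on day 3. From day 0 to day 1 it changed by -0.50 on the log2 scale (adjusted p = 0.178), and its second day was steeper. Days 0 and 1 overlapped, whereas from day 1 to day 2 it fell by 1.75 on the log2 scale (adjusted p = 1.1e-05), the larger of the 2 calls in that step. The share of day 0 left was 71.8% ± 22.6, 20.9% ± 3.70 and 11.7% ± 2.01 on days 1, 2 and 3 (SD, n = 3). With day 0 replicate 1 left out, the shares were 79.2%, 23.1% and 12.9%.

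Prdm14 encodes a PR-domain regulator that represses FGF signalling and de novo DNA methylation and is also needed in germ cell precursors. Prdm14 (chr1:13113457-13127163, minus strand) held 641, 964 and 912 normalized counts on day 0, 330.1, 648 and 344 on day 1, 92.9, 131 and 100.1 on day 2, and 90.3, 81.9 and 86.3 on day 3. Day 1 replicate 2 overlapped day 0, and all of days 2 and 3 lay far below both. The step between days 1 and 2, -1.96 on the log2 scale, had the largest size among the members but was not called (SE 0.42, adjusted p = 0.0023). It was called with a pseudocount of 5, with quantile normalization and with the replicate block, with adjusted p of 7.8e-05, 0.00050 and 0.00063. From day 0 to day 2 it fell by 2.94 (adjusted p = 1.5e-05), and by 3.12 without day 0 replicate 1.

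Tbx3 encodes a T-box TF that acts in the network and, in the eye, in the dorsal retina. Tbx3 (chr5:119670669-119684724, plus strand) held 1356, 5108 and 4435 normalized counts on day 0, 1687, 2839 and 1559 on day 1, 726, 749 and 712 on day 2, and 641, 401 and 409 on day 3. Its lowest day 0 library lay below all of day 1. Tbx3 fell by 2.10 on the log2 scale between days 0 and 2 (adjusted p = 0.00025) and by 2.70 without day 0 replicate 1, but leaving out any of the other 5 libraries of these days ended the call (range over the 6 omissions -2.70 to -1.75, highest adjusted p = 0.0025). The antisense gene Tbx3os1 overlaps it and reached at most 50.5 normalized counts. Whether reads of the 2 strands were kept apart is not given in the sources used here.

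**Figure D2:**
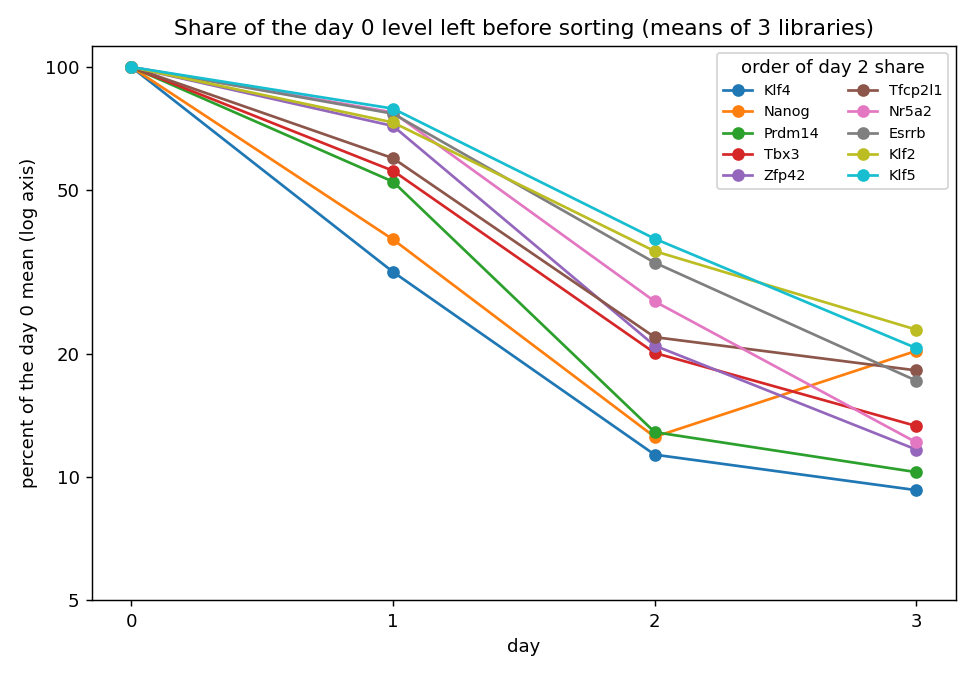
Percent of the day 0 mean (log axis) left on days 1, 2 and 3 for each of the 10 factors, as means of 3 libraries. Klf4 (31.6%, 11.3% and 9.28%) was lowest on every day, Klf2 and Klf5 were highest on day 2, and Nanog was the only line that went up from day 2 to day 3.

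Ranked by the share of the day 0 mean left on day 2, the order was Klf4 (11.3%), Nanog (12.5%), Prdm14 (12.9%), Tbx3 (20.1%), Zfp42 (20.9%), Tfcp2l1 (21.9%), Nr5a2 (26.8%), Esrrb (33.3%), Klf2 (35.6%) and Klf5 (38.1%). The median share was 21.4% with an SD of 1.48 over the day 2 libraries at fixed day 0 means, which leaves out the day 0 spread. It ranged from 19.5% to 25.6% when 1 library of day 0 or day 2 was left out. By the first day of a call against day 0, Klf4 came on day 1, Klf2 and Klf5 on day 3, and the other 7 on day 2. This grouping depends on single libraries: Klf2 and Klf5 were called on day 2 without day 0 replicate 1, Nanog on day 1 under 2 omissions, and Esrrb, Nr5a2 and Tbx3 each lost the day 2 call under 5 of 6. In 8 of the 9 neighbouring pairs the within-library difference of the 2 genes overlapped between days 0 and 2. Prdm14 and Tbx3 were separate, with changes that differed by -0.84 on the log2 scale. An exact permutation test of 3 against 3 libraries cannot give a p below 0.10, so it can decide none of these pairs. Klf4 kept the first rank on days 1, 2 and 3 whichever library of days 0 to 3 was left out. Klf2 and Klf5 kept the last 2 ranks on day 2 under the same omissions. Without day 0 replicate 1 no member moved by more than 2 ranks on day 2, and Zfp42, from the fifth to rank 7, moved most.

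The order on day 3 differed from that on day 2 because Nanog, at 20.3%, moved from rank 2 to rank 8, while Nr5a2 moved from rank 7 to rank 4 with 12.1% left. The median share of the 10 was then 15.2%, with Klf4 at 9.28% the lowest and Klf2 at 22.9% the highest. The median was 13.6% without day 0 replicate 1, and Nanog was highest with 22.8%, ahead of Klf2 with 19.7%. These changes of rank were not tested.

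Between day 3 and day 4 the members separated with the gates. All 10 members fell in the GFP-positive cells, by between 3.79-fold for Klf4 and 25.0-fold for Klf2, where 7.36% of all genes tested fell. In the GFP-negative cells 0 of 10 members were called lower by limma, beside 0.871% of all genes, and 4 had an unadjusted p under 0.05. These 4 were Klf2 (log2-fold-change -1.25), Esrrb (-1.31), Tfcp2l1 (-0.89) and Zfp42 (-0.98), with adjusted p from 0.0017 to 0.0268. Klf4 and Tbx3 had slightly higher means in day 4 GFP-negative cells than on day 3, by 0.15 and 0.21 on the log2 scale, with overlapping libraries. Nanog, at 2663, 2449 and 2190.2 normalized counts, also overlapped its day 3 values. Day 3 was not sorted, so the comparison with either gate also contrasts a mixed with a gated population.

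Set directly against each other, the gates differed in all 10 members on both days. By the study's methods the samples of days 4 and 5 were sorted into both gates, so the gates of a day can share organoids. The fit did not pair them. On day 4 the GFP-positive cells were called lower in 10 of 10 (3.63% of all genes tested), by 4.21-fold for Klf4 to 15.6-fold for Nanog. On day 5 they were again lower in 10 of 10 (4.61% of all genes), by 4.53-fold for Tbx3 to 15.2-fold for Nanog. In a fit of only the groups compared, 5 members kept the call on day 4 (Klf4, Esrrb, Nr5a2, Prdm14 and Tbx3 lost it, with adjusted p from 0.00137 to 0.0037) and 8 on day 5. In each of the 10, every GFP-positive library lay below every GFP-negative one on both days, as they did in 20.5% of all genes tested on day 4 and 20.8% on day 5. Nanog had log2 ratios of -3.96 ± 0.20 and -3.93 ± 0.20 (SE) on days 4 and 5. Prdm14, at -3.95 ± 0.42 on day 4, and Nr5a2, at -3.91 ± 0.35 on day 5, lay within their errors of it, and with a pseudocount of 0.5 they reached -4.16 and -4.02 against -3.97 and -3.94 for Nanog, so which member differed most is not resolved. The smallest on day 4 were those of Klf4 (-2.07) and Klf5 (-2.11). Tbx3, at -2.97 on day 4 and -2.18 on day 5 (adjusted p = 0.00027), lost its day 5 call when any of 4 of the 6 day 5 libraries was left out (these 4 fits gave -2.25 to -2.01, highest adjusted p = 0.0027). The change of the gate difference from day 4 to day 5 was called in 0 of 10 members by limma (0.0333% of all genes called lower and 0.0762% higher), and no member had an unadjusted p under 0.05. The largest size was that of Tbx3, 0.79 with a 95% interval of -0.35 to 1.93, so a change of this size was not detectable.

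**Figure D3:**
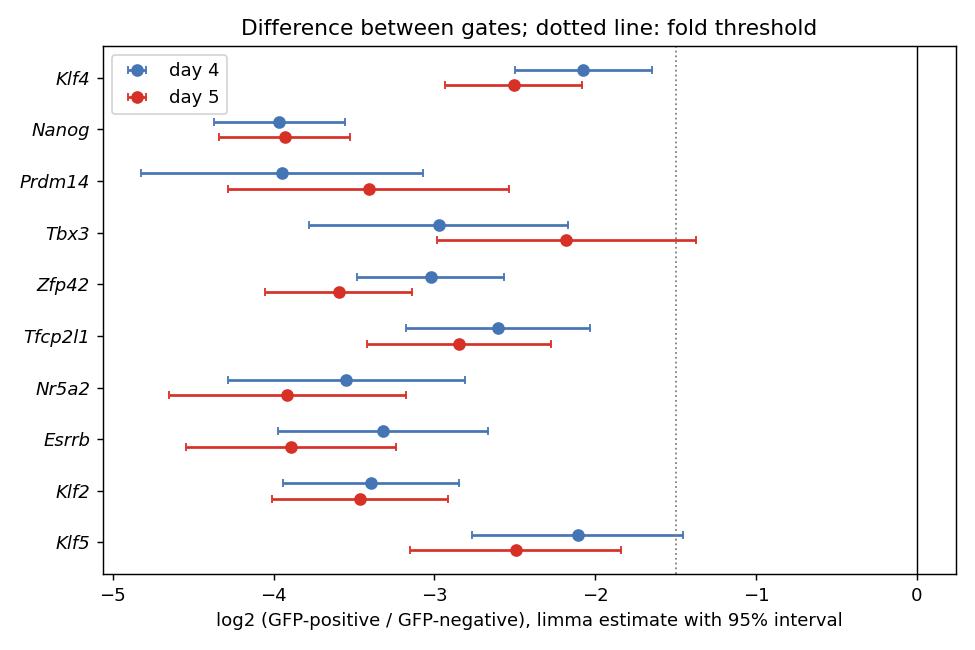
Log2 ratio of GFP-positive to GFP-negative cells for each factor on day 4 (blue) and day 5 (red), as limma estimates with 95% intervals. All estimates lie below the fold threshold of -1.5 (dotted line), from -2.07 for Klf4 to -3.96 for Nanog on day 4, and the intervals of Klf5 on day 4 and of Tbx3 on day 5 cross it.

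In the GFP-positive libraries several members were close to the floor of detection. Prdm14 held 1.14, 9.16 and 2.58 normalized counts on day 4 and 2.73, 6.88 and 1.81 on day 5, where 1 read was worth about 0.862 to 1.14. Nr5a2 held 8.70, 23.1 and 4.99 on day 4 and 5.39, 6.63 and 5.24 on day 5. For both genes a few reads set the level in this gate, and the fold differences from the GFP-negative gate depend on the pseudocount. Replicate 2 of day 4 GFP-positive was the highest for 8 members, and the 10 members summed to 1261 there against 652 and 792 in the others. In this library Esrrb was at 219 against 78.1 and 71.6, and Zfp42 at 272 against 128 and 127. Tbx3 held 40.9, 87.5 and 91.0 on day 4 and 104, 147 and 152 on day 5 in GFP-positive cells. The values of day 5 all lay above those of day 4, a step that was not among the contrasts tested. On day 5 the GFP-positive cells held 3.71% ± 2.17 of the day 0 mean of Tbx3, 2.54% ± 1.59 of Klf5 and 2.35% ± 0.46 of Klf4, while the other 7 members were between 0.320% and 1.31% (SD, n = 3). With day 0 replicate 1 left out, they were 2.82% for Tbx3, 2.29% for Klf4 and 1.96% for Klf5, so the order of the Klf genes is not resolved.

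The GFP-negative cells of day 5 still held between 3.91% and 17.0% of the day 0 means, with a median of 6.67%. The SD of this median over the libraries was 0.72 at fixed day 0 means, which leaves out the day 0 spread. Tbx3 kept 17.0% ± 10.3, Klf5 14.0% ± 7.57 and Klf4 13.5% ± 2.72. Tfcp2l1 kept 9.50% ± 4.45 and Nanog 7.18% ± 1.75, and Klf2, Nr5a2, Prdm14, Esrrb and Zfp42 kept between 6.16% and 3.91%. The SDs of Tbx3 and Klf5 include the wide spread of day 0, so the order among these 3 is not resolved. The median was 6.41% without day 0 replicate 1, with Klf4 at 13.1%, Tbx3 at 13.0%, Klf5 at 10.8% and Zfp42 lowest at 4.31%. Measured against day 3, before any sorting, the day 5 GFP-negative level was 145% for Klf4 and 128% for Tbx3, and between 26.9% and 67.7% for the other 8. Klf4, the member with the lowest share on days 1 to 3, held 636, 481 and 558 normalized counts and lay above all its day 3 values (402, 418 and 334) in the GFP-negative cells of day 5. This last comparison was not among the contrasts tested.

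Within the GFP-negative gate, between days 4 and 5, limma called 0 of 10 members lower (0.509% of all genes) and gave 3 an unadjusted p under 0.05. Nanog went from 2663, 2449 and 2190.2 to 949, 1131 and 888 normalized counts. Its log2-fold-change of -1.30 (adjusted p = 0.00013) passed the p threshold but not the fold threshold, and the days did not overlap. The others with an unadjusted p under 0.05 were Klf2 (-0.65, adjusted p = 0.133) and Zfp42 (-0.59, adjusted p = 0.0928). Klf4 was 0.38 higher on the log2 scale (95% interval -0.05 to 0.81, adjusted p = 0.283). For Klf5 the interval was -0.70 to 0.61 and for Tfcp2l1 -0.62 to 0.52, so that a difference of up to about this size could not be seen.

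Among 18 other genes linked to the naive state, which are not members, 15 fell from day 0 to day 3 (6.12% of all genes tested) and 0 rose, with a median log2-fold-change of -2.48 beside -2.61 for the 10 factors. Again 15 fell without day 0 replicate 1, with a median of -2.53 beside -2.88. In the gate comparison 15 of 18 were lower in GFP-positive cells on day 4 (3.63% of all genes) and 14 on day 5 (4.61%). Gbx2, a homeobox gene that is also patterned along the neural axis, differed from the other genes of the list. It fell by 1.87 on the log2 scale between days 0 and 1. By day 3 it fell by 4.52, when its libraries held 68.7, 77.7 and 59.2 normalized counts. In day 4 GFP-negative cells it rose by 2.90 (adjusted p = 3.4e-07), to 468, 604 and 488, the single call in that direction in a list of 18, where 2.00% of all genes tested were called higher. Dppa4, a chromatin-associated gene of pluripotent cells, had no lower mean on day 1, with 8717 ± 1563 normalized counts on day 0, 9724 ± 457 on day 1 and 6165 ± 137 on day 2, before it fell by 1.61 on the log2 scale between days 2 and 3. In the same list Tdh, Zscan10, Dnmt3l, Fgf4, Tcl1 and Dppa3 also had higher means on day 1 than on day 0.

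Of 7 genes of the LIF pathway, 1 fell from day 0 to day 1 (0.395% of all genes tested did) and 4 fell by day 3 (6.12%), while Il6st (log2-fold-change by day 3 -0.21), Jak1 (-0.14) and Pim3 (-0.76) were not called. Both counts were the same without day 0 replicate 1. Socs3, the feedback inhibitor that Stat3 induces, went from 3933, 2411 and 2107 to 448, 287 and 518 normalized counts within the first day (log2-fold-change -2.74, adjusted p = 4.6e-07, against -1.67 for Klf4). By day 3 the log2-fold-changes were -1.90 for the receptor gene Lifr, -1.89 for Stat3 and -1.98 for the kinase gene Pim1. In GFP-negative cells of day 5 the Socs3 libraries held 745, 512 and 516 normalized counts, and in the GFP-positive cells 376, 366 and 399, both above the 306, 200.1 and 170.4 of day 3. Among 10 genes linked to the exit from the naive state, such as Tcf7l1 and Zfp281, which drive it, and Tfe3, which opposes it when in the nucleus, limma called 0 from day 0 to day 2, where 3.01% of all genes were called lower and 3.06% higher. By day 3 Etv4 (-2.53) and Rbpj (-1.58) had fallen while none rose, where 6.12% of all genes fell and 5.91% rose.

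Of the shared core TFs Pou5f1, Sox2 and Sall4, limma called 0 from day 0 to day 3, with a median log2-fold-change of -0.59. At shares of 6.12% lower and 5.91% higher over all genes, a count of 0 in 3 genes does not set them apart. Pou5f1 had values of 38140, 36590 and 35360 normalized counts on day 0 and 35600, 31820 and 30450 on day 2, when the median naive factor was at 21.4% of its day 0 mean. In the GFP-negative gate Pou5f1 fell by 1.70 on the log2 scale between days 3 and 4 and by a further 2.48 from day 4 to day 5, steps in which 0 of the 10 factors were called. Sox2 was not called in any of the 11 comparisons.

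Of 12 genes of the formative and primed states, 3 rose from day 0 to day 1 (0.343% of all genes tested rose), and 6 rose and 1 fell from day 0 to day 2 (3.06% of all genes tested rose). From day 0 to day 3 again 6 rose (5.91% of all genes) and 1 fell. Without day 0 replicate 1 the genes that rose were 1, Fgf5, by day 1, 5 by day 2 and 6 by day 3. Fgf5, a growth factor gene of the post-implantation epiblast, went from 329, 609 and 478 to 4956, 4592 and 4653 normalized counts on day 2, and Sox3 rose by 3.64 on the log2 scale by day 3. Tcf15, by contrast, fell by 3.37. On day 4 Fgf5 was at 2989, 2582 and 2674 in GFP-negative but at 248, 284 and 246 in GFP-positive cells.

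**Figure D4:**
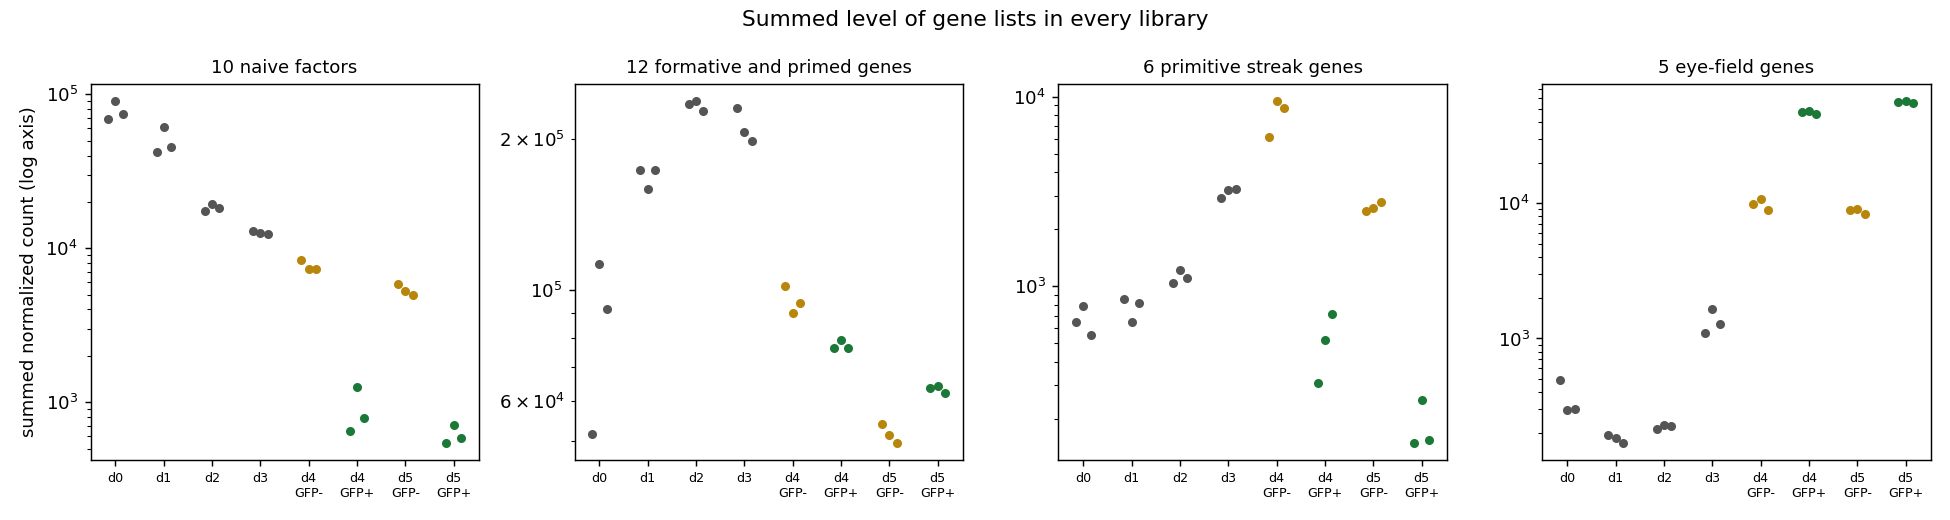
Summed normalized counts (log axis) per library of the 10 naive factors, 12 formative and primed genes, 6 primitive streak genes and 5 eye-field genes, in the 8 groups (3 points each, colours as for the members). The naive factors sum to 69529 to 90789 on day 0 and 12351 to 12874 on day 3, and the streak genes are highest in day 4 GFP-negative cells (6104 to 9518). In such sums highly expressed genes weigh most.

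Sums of markers of other cell types were higher in the GFP-negative gate, in which the factors remained, and their part in those values was not tested. All 6 primitive streak genes (T, Mixl1, Eomes, Tbx6, Mesp1 and Evx1) rose from day 0 to day 3, where 5.91% of all genes tested rose (5 of 6, all but Evx1, without day 0 replicate 1), and 4 of them from day 2 to day 3, a step in which 0.714% of all genes tested rose. Their sum was 2929 to 3247 normalized counts on day 3, 6104 to 9518 in day 4 GFP-negative and 309 to 718 in day 4 GFP-positive cells. T, the defining mesoderm TF gene, was at 43.3, 45.0 and 53.0 on day 2 and at 495, 508 and 512 on day 3, the same interval in which Nanog was higher. Of 8 visceral endoderm genes 5 were lower in GFP-positive cells on day 4 (3.63% of all genes) and 6 on day 5 (4.61%), and their sum in GFP-negative cells was 2263 to 3710.4 on day 4 and 3774 to 5111 on day 5, although the defining gene Afp was at 23.5 or less there. The 6 endothelial genes summed to 1016 to 1869 and 1599 to 2337 in the same gate, and 3 of them, Cdh5, Tek and Tie1, rose from day 4 to day 5, where 0.762% of all genes tested rose. Their sum was also higher on day 5 in GFP-positive cells, at 182 to 293 on day 4 and 754 to 913 on day 5. This list holds Pecam1, which is also among the 18 naive genes, and the other 5 genes summed to 675 to 1549 and 1429 to 2097 in GFP-negative cells. Of these 5 genes, 1 was called lower in GFP-positive cells on day 4 (3.63% of all genes) and 4 on day 5 (4.61%). Surface ectoderm genes summed to 6233 to 10489 in GFP-negative and 4420.1 to 5052 in GFP-positive cells on day 4, but Krt8 and Krt18, keratin genes of simple epithelia in general, made up 91.0% or more of these sums, and the defining genes Krt5, Krt14 and Trp63 were at 10.8 or less in these libraries. Conversely the 5 eye-field genes summed to 8870 to 10833 in day 4 GFP-negative cells, against 45893 to 47745 in GFP-positive cells.

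Genes of germ cells were examined because Prdm14 and Nanog are also expressed in germ cell precursors. Of 7 germ cell genes 4 fell from day 0 to day 3, with and without day 0 replicate 1 (6.12% of all genes), and 3 were lower in GFP-positive cells on day 4 (3.63%) and 4 on day 5 (4.61%). Dppa3 is also among the 18 naive genes, and without it the counts were 4, 2 and 3 of 6. Tfap2c was at 440.2, 446 and 386 normalized counts in GFP-negative cells on day 4 and 497, 558 and 458 on day 5, against 27.3 to 49.4 and 77.6 to 101 in GFP-positive cells. The precursor gene Nanos3 stayed at 12.6 or less in GFP-negative cells. Prdm1 differed between the gates by -4.19 on the log2 scale on day 5 and by -0.87 on day 4, and this change was itself called (-3.32, adjusted p = 4.3e-05).

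Each member's profile over the 8 group means was also compared with those of all tested genes with a symbol that are not members. This is a description in which all points share the same libraries. The most alike gene outside the members was Dazl for Klf2 (Pearson r = 0.999 over 8 group means of log2 values), Triml1 for Esrrb (0.999), Anxa8 for Klf5 (0.999) and Nr5a2 (1.00), Arl14epl for Zfp42 (1.00), Lifr for Tbx3 (0.998), Mep1b for Tfcp2l1 (0.998), Zfp750 for Prdm14 (0.996), Gm10532 for Klf4 (0.994) and Map2k1 for Nanog (0.989). Klf5 was closer to the member Nr5a2 (0.9989) than to Anxa8 (0.9986), and Prdm14 closer to the member Tfcp2l1 (0.9958) than to Zfp750 (0.9956). Among the members themselves Klf2 and Esrrb (0.999) and Klf5 and Nr5a2 (0.999) were the most alike pairs. Klf4 was the least alike member for 7 of the other 9, with r from 0.901 with Klf2 upwards, and the profiles of Nanog and Tbx3 (0.924) were each other's least alike.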

How the data were processed

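For each gene and library the authors deposited a signal of DESeq2-normalized counts, made from kallisto 0.43.1 estimates over mouse transcripts (mm10). Whether strands were kept apart, and how ambiguous reads were shared out, is not given in the sources used here. Further columns with the authors' own calls between days were not used. Of values up to 20 reads, 45.8% to 76.9% per library were within 0.1 of a whole multiple of the worth of 1 read, too few for a count model.

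Samples were grouped by their labels. The test was limma 3.58.1 (R 4.3.3: lmFit, contrasts.fit, eBayes with trend) on log2(value + 1), over 21005 genes that reached 10 in 3 libraries, with all 24 libraries in 1 fit, no block, and Benjamini-Hochberg adjustment within each of 11 contrasts. The residual SD had a median of 0.308 on the log2 scale. Shares of day 0 are ratios of mean normalized counts, and the SDs of single members include the day 0 spread. The SDs of the median shares hold the day 0 means fixed and leave that spread out. On simulated data the procedure was tested only for planted changes above the fold threshold. Calls near that threshold were not covered by this test. The members and the gene lists were chosen with earlier results of these data known. Named genes are the 10 members and, from each list, the genes with the largest change or on which a result turns. Gbx2, Dppa4, Socs3, Fgf5, T, Tfap2c, Nanos3 and Prdm1, and the genes named beside Dppa4, were described after their values were seen. Alternatives were pseudocounts of 0.5 and 5, no filter and a filter of 50, quantile normalization, eBayes without trend, a replicate block, a fit of only the groups compared, and omission of each library. Other tools were pandas 2.3.3, numpy 2.4.6, scipy 1.17.1, Python 3.11.15 and matplotlib 3.10.9, and promoter windows are from RefSeq.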

Additional observations from a re-analysis of the deposited data

How the results depend on the processing

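Of 1680 refits of single members, 1610 kept direction and side of the threshold, 43 lost a call, 12 gained one, and 15 changed the sign of a value that was not called. With a fit of only the groups compared, which has fewer samples to estimate the spread, the members called were 0 from day 0 to day 1, 3 from day 0 to day 2, 4 from day 0 to day 3, 5 in the gates on day 4 and 8 on day 5, and all genes called lower were 0 in place of 83 from day 0 to day 1, 62 in place of 632 from day 0 to day 2, 293 in place of 1286 from day 0 to day 3, 83 in place of 183 from day 3 to day 4 GFP-negative, 220 and 443 in place of 763 and 968 in the gates on days 4 and 5, 43 in place of 107 in GFP-negative cells between days 4 and 5, and 20 in place of 7 for the change of the gate difference. All genes called higher were then 1 in place of 72 from day 0 to day 1, 73 in place of 198 from day 1 to day 2, 42 in place of 642 from day 0 to day 2, 67 in place of 150 from day 2 to day 3, 263 in place of 1241 from day 0 to day 3, 212 in place of 421 from day 3 to day 4 GFP-negative and 62 in place of 160 in GFP-negative cells between days 4 and 5. With quantile normalization the median share left on day 2 was 23.5%. Esrrb also lost its day 2 call without the filter, with quantile normalization and without the trend. Leaving out 1 library at a time, the members called ranged from 1 to 2 (day 0 to day 1), 1 to 3 (day 1 to day 2), 5 to 10 (day 0 to day 2) and 9 to 10 (gates on day 5), and were 10 for day 0 to day 3 and for the gates on day 4. Without day 1 replicate 2 the step from day 1 to day 2 had 1 call, and Nanog lost its own (-1.43), as it did with quantile normalization (-1.4997). Nanog gained a call from day 0 to day 1 without that library or without day 0 replicate 3. All genes called lower ranged from 49 (without day 1 replicate 3) to 86 from day 0 to day 1, 31 (without day 1 replicate 2) to 173 (without day 0 replicate 1) from day 1 to day 2, 26 (without day 2 replicate 1) to 96 (without day 0 replicate 1) from day 2 to day 3, 102 (without day 4 GFP-negative replicate 3) to 225 from day 3 to day 4 GFP-negative, 71 (without day 4 GFP-negative replicate 1) to 124 in GFP-negative cells between days 4 and 5, and 5 to 25 (without day 0 replicate 1) for the change of the gate difference. Those called higher ranged from 46 (without day 1 replicate 1) to 95 from day 0 to day 1, 95 (without day 3 replicate 2) to 187 from day 2 to day 3, and 89 (without day 4 GFP-negative replicate 1) to 203 in GFP-negative cells between days 4 and 5. For the change of the gate difference they ranged from 3 (without day 4 GFP-negative replicate 1) to 26 (without day 0 replicate 1). In place of 16 they were 8 without the filter, and 10 without the trend or with the replicate block. Leaving day 0 replicate 1 out of the gene lists, and shared genes out of the germ cell and endothelial lists, were alternatives chosen after seeing the data. The median share left on day 2 ranged from 19.5% to 25.6%, and that in day 5 GFP-negative cells from 6.34% to 7.38%. Signs changed for Klf5 from day 0 to day 1 (-0.72 to 0.18), Tfcp2l1 (-0.15 to 0.11) and Tbx3 (-0.009 to 0.36) in GFP-negative cells between days 4 and 5, and the change of the gate difference for Nanog (-0.12 to 0.27), Klf2 (-0.26 to 0.29, and 0.15 with quantile normalization) and Nr5a2 (-0.82 to 0.19). The cause of these changes was not tested. Over 84 pairs of libraries with the same replicate number, deviations had a mean r of -0.00 (range -0.28 to 0.40, 10 over 0.1). This mean runs over all groups, so it cannot decide whether the gates of a day pair by replicate. With a replicate block, shared by all days, 3 members were called from day 1 to day 2, with Prdm14 added. No other call of a member changed with it. A pseudocount of 5 raised all genes called lower from day 1 to day 2 from 111 to 226, from day 2 to day 3 from 61 to 95, and for the change of the gate difference from 7 to 15. Quantile normalization lowered those of the gates on day 5 from 968 to 569. Depth limits Prdm14 and Nr5a2 in GFP-positive cells, where a few reads make up the level.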
